A study of Mus musculus with 4 samples.

Results

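The comparison set 1 array of APNL cells against 1 array of primary mouse neurons, gene by gene. A gene entered when the scanner called it detected (detection p under 0.01) on at least 1 of the 2 arrays, which held for 9010 of the 16593 genes with a probe, or 54.3%. Of these, 7862 were detected on both arrays, 866 on the Primary neuron array alone and 282 on the APNL array alone. The other 2 arrays of the series, Fibroblast and APNL+AuEMF, serve here only to place each gene's level.

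The study concerns direct conversion of fibroblasts into dopamine neurons under an electromagnetic field. Total RNA from each of 4 mouse cell samples was hybridised to an Illumina BeadChip, 1 array per group. The labels give the cell types as Fibroblast, APNL, APNL+AuEMF and Primary neuron, and give no strain, age, brain region, time in culture or gene delivery control. From published work, and not from the labels, APNL is taken to stand for cells given a set of transcription factors that includes Pitx3, Nurr1 (the product of Nr4a2) and Lmx1a, with AuEMF read as gold nanoparticles exposed to such a field. If so, the APNL and APNL+AuEMF cells share these introduced factors, and the Fibroblast and Primary neuron cells carry no introduced copies, though they can express the genes themselves. A whole culture was measured each time, so fewer cells of a type and less RNA per cell cannot be told apart.

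Direct conversion uses transcription factors to switch on the genes of another cell type without passing through a stem cell. Nurr1, Pitx3 and Lmx1a belong to the program of midbrain dopamine neurons. A complete conversion has 2 sides, the gain of neuronal genes and the loss of the genes of the starting cell. In fibroblasts the latter include collagens, mesenchymal transcription factors and, where the culture holds myogenic cells, contractile protein genes.

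Levels are log2 normalised intensities, and a difference is the APNL level minus the Primary neuron level. A gene was called higher or lower when the levels were at least 2-fold apart. Where a gene was detected on 1 array alone, the fold is a lower bound. Its reference is the lowest level detected on the other array (6.93 for APNL, 6.36 for Primary neuron), or the gene's own level there if that was higher, and it is written "at least". With 1 array a side there is no replicate error, so folds describe these arrays and no test was made. The detected share of the 25697 probes was 42.9% for APNL and 47.8% for Primary neuron, with 41.4% for Fibroblast and 45.8% for APNL+AuEMF. Among genes at the detection threshold, 34 just inside had a detection p of 0.00877 and raw intensities of 214 to 224, and 81 just outside had a p of 0.01 and raw intensities of 212 to 224.

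Markers were checked against the labels first. Of 13 neuron markers, 11 were detected on the Primary neuron array and 9 on the APNL array, with 6 on Fibroblast and 11 on APNL+AuEMF. All 8 fibroblast markers were detected on all 4 arrays, the Primary neuron array included, and of 5 skeletal muscle markers 5 were detected on APNL and 2 on Primary neuron. Among 7 dopaminergic markers the same number, 2, was detected on every array, and these were Ddc and En1. Th, the rate-limiting enzyme gene of dopamine synthesis, the dopamine transporter gene Slc6a3, the vesicular monoamine transporter gene Slc18a2, and Foxa2 were not detected on any of the 4 arrays. The array labelled Primary neuron therefore carried neuronal genes and fibroblast genes side by side, without detected Th, Slc6a3 or Slc18a2.

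Of the supposed introduced factors described here, none was called higher or lower between APNL cells and neurons. Nr4a2 had a level of 7.26 on the APNL array and 7.71 on the Primary neuron array, with 7.19 on both the Fibroblast and the APNL+AuEMF arrays. These 4 levels span a narrow range just above the detection limit. Lmx1a was detected only on the Primary neuron array, at 6.67, which is below the APNL array's lowest detected level, so no fold can be given. Pitx3 was not detected on any array. The probes may lie outside the introduced sequences, so they do not check delivery.

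Across all compared genes 1141 were higher in APNL (12.7%) and 962 were lower (10.7%), with 158 and 175 of these as bounds. With the authors' deposited log2 values, which carry no background correction, the counts were 732 and 735, and with the arrays scaled by their medians 1468 and 891. The largest folds on the APNL side were those of Myl1 and Actc1, contractile protein genes, and on the neuron side those of Islr2, a neuronal surface protein gene, and the haemoglobin gene Hba-a1. At 4-fold the order turned, with 218 higher (2.42%) and 305 lower (3.39%), and at 8-fold 58 were higher and 61 lower. The median difference of all compared genes was 0.08, and 6907 genes were neither higher nor lower. The genes called in each direction were placed differently on the arrays that the rule did not use. The 1141 genes higher in APNL had a median level of 9.80 there, 9.90 on Fibroblast, 9.38 on APNL+AuEMF and 8.10 on Primary neuron, and 1135 of them were detected on the Fibroblast array. The 962 lower genes had a median of 8.47 on APNL, 7.88 on Fibroblast, 9.23 on APNL+AuEMF and 10.38 on Primary neuron, and 613 of them were detected on the Fibroblast array. The gap between the APNL and Primary neuron medians is fixed by the 2-fold rule, and nothing is read from it. The shares of 12.7% higher and 10.7% lower over all compared genes are the background for every list count below, also where they are not repeated.

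**Figure D1:**
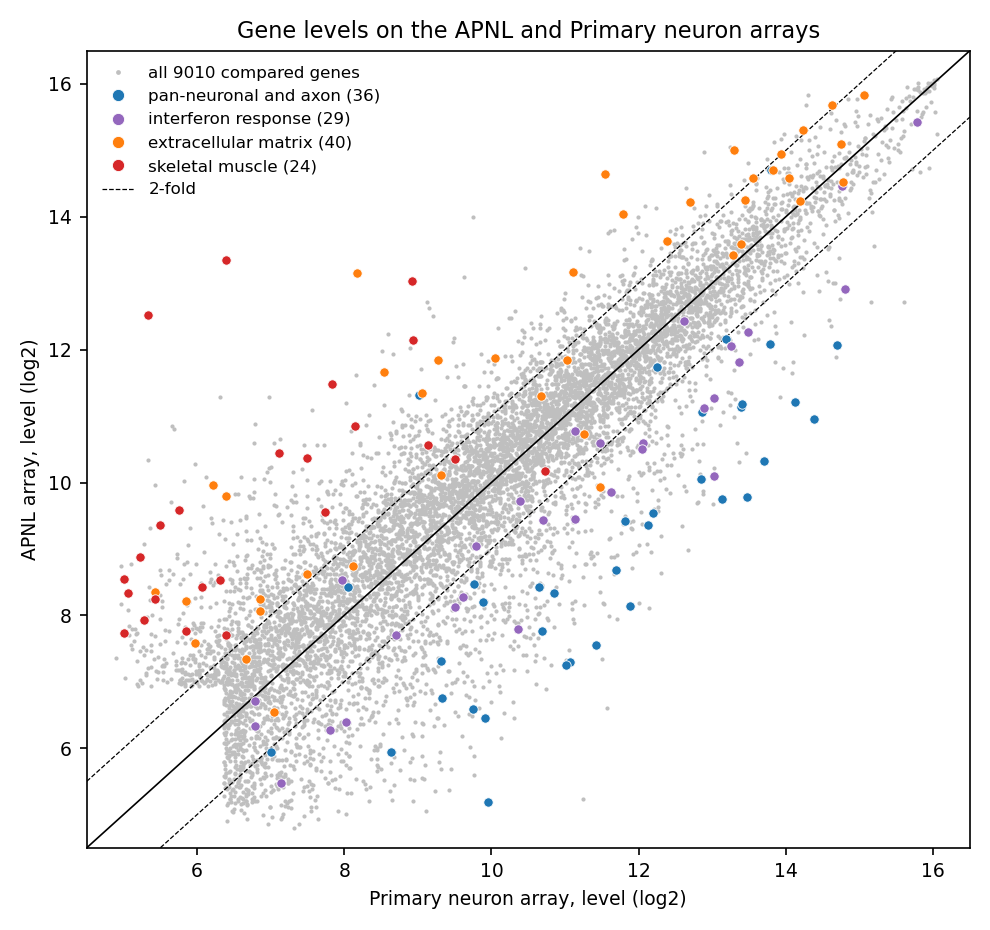
Levels of the 9010 compared genes on the Primary neuron array (horizontal, log2 normalised intensity) and on the APNL array (vertical, same unit), with 4 gene lists coloured, equality as a solid line and 2-fold as dashed lines. Pan-neuronal and interferon genes lie below the line of equality for the most part, and extracellular matrix and skeletal muscle genes above it.

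Pan-neuronal and axonal genes were mostly lower in APNL cells. Of 40 such genes on the array 36 were compared, and 31 were lower in APNL, 1 higher and 4 neither, where 10.7% of all compared genes were lower. The median difference was -2.63 (-2.57 at the bounds), against 0.08 for all compared genes. The list nevertheless stood above the fibroblast array, with a median level of 7.97 on Fibroblast, 9.02 on APNL, 9.92 on APNL+AuEMF and 11.75 on Primary neuron. L1cam, Nefh, Nefl and Celf3 were not detected on either array.

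Cytoskeletal genes of young neurons gave the clearest examples. Dcx, which encodes doublecortin, a microtubule-binding protein of migrating neurons, had levels of 7.79 on Fibroblast, 9.78 on APNL, 11.09 on APNL+AuEMF and 13.47 on Primary neuron. APNL lay 12.9-fold below neurons, and the order of the 4 arrays was the same as for the list as a whole. Stmn3, a stathmin gene that regulates microtubules, was not detected on Fibroblast and stood at 8.14 on APNL, 9.59 on APNL+AuEMF and 11.88 on Primary neuron, 13.3-fold lower in APNL. Ina, the gene of the neurofilament protein internexin, had 7.25 on APNL and 11.02 on Primary neuron, 13.6-fold lower, and was not detected on Fibroblast. Crmp1, which encodes a semaphorin-signalling protein of growth cones, was 14.5-fold lower, at 7.56 against 11.42. The APNL level of Crmp1 was close to the Fibroblast level of 7.18, while that of Dcx and Stmn3 was well above it.

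RNA-binding and secretory genes of neurons followed the same order. Elavl3, which encodes a neuronal splicing and stability factor, was at 7.30 on APNL and 11.07 on Primary neuron, 13.6-fold lower, and was not detected on Fibroblast. Scg3, a secretogranin gene of dense-core vesicles, was at 8.64 on APNL, 9.97 on APNL+AuEMF and 12.31 on Primary neuron, 12.8-fold lower in APNL. Nsg2, an endosomal protein gene of neurons, had one of the highest neuronal levels, at 8.02, 10.96, 12.45 and 14.39 on Fibroblast, APNL, APNL+AuEMF and Primary neuron. Exceptions existed: Eno2, neuronal enolase, was 1.43-fold lower, Kif1a, a vesicle kinesin gene, was 1.29-fold higher, and Ncam1, the neural cell adhesion molecule gene that muscle and mesenchymal cells also express, was 4.91-fold higher in APNL. Ncam1 stood at 11.43 on Fibroblast, 11.31 on APNL and 9.02 on Primary neuron. On the same arrays Eno2 stood at 11.59, 11.74 and 12.25, and Kif1a at 8.63, 8.42 and 8.05. Tubb3, the class III beta-tubulin gene often used to mark neurons, was low even on the Primary neuron array, at 7.0, and was not detected on APNL.

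The repressor REST silences neuronal genes in other cell types by binding the RE1 element. The left part of that element, TTCAGCACC, read on either strand, was found in the 250 bases upstream of the start of 94 of 27025 genes with a RefSeq promoter, or 0.348%. Among compared genes with a promoter it was found at 1 of 25 pan-neuronal genes, Nsg2, and at 1 of 20 synaptic genes, Syn1. The Nsg2 window is shown because this gene combines a high level in neurons with an intermediate level in APNL. It covers chr11:32000450-32000699 on the plus strand of GRCm38.p6, the match is in capitals, and it ends 192 bases upstream of the start.
Nsg2: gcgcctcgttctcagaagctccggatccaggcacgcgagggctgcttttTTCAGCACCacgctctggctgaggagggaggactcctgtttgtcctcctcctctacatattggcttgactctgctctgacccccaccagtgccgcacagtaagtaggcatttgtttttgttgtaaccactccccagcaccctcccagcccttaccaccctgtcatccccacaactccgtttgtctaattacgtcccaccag

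Several of the genes that were much lower in APNL were outside the gene lists. Tfap2c, which encodes the transcription factor AP-2 gamma, showed the greatest measured deficit in APNL, 17.8-fold, with 7.34 on APNL, 8.2 on APNL+AuEMF and 11.5 on Primary neuron, and was not detected on Fibroblast. Celsr3, an atypical cadherin gene of axon tract formation, was 16.4-fold lower, at 8.11 against 12.14. Septin3, a neuronal septin gene, was 14.1-fold lower at 8.18 against 12, and Ncan, the gene of the brain matrix proteoglycan neurocan, 13.6-fold lower at 7.94 against 11.70. All of these were above the detection limit on APNL and below it on Fibroblast. Among genes that were not detected on APNL, Islr2 was at least 24.9-fold lower, Myt1, a zinc finger gene of neuronal differentiation, at least 14.1-fold, and Cntnap2, an axonal adhesion gene, at least 10.4-fold.

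Synaptic genes were lower in APNL in 17 of 24 compared cases and neither in 7, with none higher and a median of -1.88. Vesicle proteins led the list. Syp, the gene of the vesicle membrane protein synaptophysin, was at 8.18, 9.71, 11.12 and 12.81 on Fibroblast, APNL, APNL+AuEMF and Primary neuron, 8.59-fold lower in APNL than in neurons. Sv2a, a vesicle glycoprotein gene, was 8.15-fold lower, the calcium sensor gene Syt1 7.75-fold, and Cadps, which primes dense-core vesicles, 7.07-fold. Cplx1, which encodes the release regulator complexin, was at 7.14, 10.59, 11.90 and 13.34 in the same order of arrays, so its APNL level lay above the midpoint of the log2 range between fibroblasts and neurons. Stx1a, a membrane fusion gene, was within 1.29-fold, but its level of 11.52 on Fibroblast was almost as high. Camk2a, at 7.24 on APNL and 7.48 on Primary neuron, was low on both, and Snap25 was not detected on any array.

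Many ion channel and receptor genes were not detected on either array. Of 21 voltage-gated channel genes 14 were compared, and 2 were higher, 3 lower and 9 neither. Over all compared genes 12.7% were higher and 10.7% lower, so the channel genes that follow are named as a description. Kcnc1, a fast potassium channel gene, was at 8.13 on APNL and 10.60 on Primary neuron, 5.52-fold lower, and the calcium channel subunit gene Cacna2d3 was 3.53-fold lower. Kcnab1, a potassium channel beta subunit gene, went the other way at 11.47 against 8.40, 8.44-fold higher in APNL, as did the T-type calcium channel gene Cacna1g, 3.99-fold higher. Both stood about as high on Fibroblast as on APNL, at 11.38 and 10.53. Of 23 transmitter receptor genes 10 were compared and 5 were lower, with none higher. Gria2, the AMPA receptor subunit gene, was 9.40-fold lower, at 9.35 against 12.59, the glycine receptor gene Glra2 9.39-fold, and Gria1 3.31-fold. The nicotinic subunit gene Chrnb2 was at least 3.96-fold lower.

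Inhibitory neuron genes were lower in APNL in 10 of 11 compared cases, with a median of -2.25, yet several had high levels. Sst, the somatostatin gene, was at 7.49 on Fibroblast, 10.86 on APNL, 12.28 on APNL+AuEMF and 13.10 on Primary neuron, 4.74-fold lower in APNL. Gad1, which makes GABA from glutamate, was not detected on Fibroblast and was at 9.88, 11.23 and 12.18 on the other 3 arrays, 4.92-fold lower in APNL. The inhibitory neuron marker Gad2 was not detected on any array. Slc32a1, the vesicular GABA transporter gene, was at 8.71 on APNL and 11.91 on Primary neuron, 9.21-fold lower. The forebrain interneuron regulator gene Dlx1 was 4.74-fold lower, and Reln, the gene of the secreted guidance protein reelin, 8.58-fold. For Reln the APNL level of 9.20 was close to the Fibroblast level of 8.92. Vip was the exception, at 7.45 on Fibroblast, 7.24 on APNL and not detected on Primary neuron. A second Vip probe was not detected on any array.

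Excitatory neuron genes were lower in 9 of 12 compared cases and neither in 3, with a median of -2.31. The 3 were Eomes, Slc17a7 and Neurod1, which were not detected on APNL. Their bounds fell short of 2-fold, while their measured differences were -2.1, -1.68 and -2.5. The marker Neurod6 was not detected on any array. Only 5 of the 12 were detected on APNL, with a list median of 6.76 against 10.06 on Primary neuron. Slc17a6, a vesicular glutamate transporter gene, was high on all arrays, at 9.52 on Fibroblast, 10.19 on APNL, 10.42 on APNL+AuEMF and 12.14 on Primary neuron, 3.87-fold lower in APNL. Tbr1, a cortical layer transcription factor gene, was at 7.33 on APNL, 8.18 on APNL+AuEMF and 11.02 on Primary neuron, 12.9-fold lower in APNL. Neurod2, a cortical differentiation factor gene, was 8.76-fold lower, at 7.18 against 10.31. Fezf2, which specifies deep-layer projection neurons, was at least 9.16-fold lower, Cux2, an upper-layer factor gene, at least 8.41-fold, and the glutamate transporter gene Slc1a1 at least 6.58-fold. The 3 last-named genes were not detected on APNL but were detected on APNL+AuEMF, at 7.56, 7.52 and 7.89.

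The dopaminergic list did not move one way. Of 12 compared genes 4 were higher in APNL, 3 lower and 5 neither, with a median of -0.21. Over all compared genes 12.7% were higher and 10.7% lower. Ddc, which converts L-DOPA to dopamine, was at 9.51 on Fibroblast, 9.27 on APNL, 8.44 on APNL+AuEMF and 6.81 on Primary neuron, 5.51-fold higher in APNL than in neurons and no higher than in fibroblasts. En1, a midbrain patterning gene, was 2.38-fold higher at 9.80 against 8.55, again with a Fibroblast level, 9.88, as high as that of APNL. Maob, a dopamine-degrading enzyme gene, was at least 2.39-fold higher. Otx2, an anterior patterning gene that midbrain dopamine neurons also use, was at 7.17 on APNL and 10.16 on Primary neuron, 7.97-fold lower, and was not detected on Fibroblast. En2 was at least 4.5-fold lower. Pts, an enzyme gene of the tyrosine hydroxylase cofactor, was 1.02-fold apart.

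Neural progenitor genes were lower in 8 of 14 compared cases, higher in 1 and neither in 5, with a median of -1.83. Insm1, a factor of newborn neurons and endocrine cells, was not detected on Fibroblast and was at 9.31 on APNL, 10.48 on APNL+AuEMF and 11.90 on Primary neuron, 6.0-fold lower in APNL. Cdk5r1, the neuronal activator gene of the kinase Cdk5, was 6.95-fold lower, the cortical gene Lhx2 5.62-fold and the ventral forebrain gene Nkx2-1 4.84-fold. Neurog2, a proneural factor gene, was detected on the Primary neuron array alone, at 9.11, and was at least 4.52-fold lower. The Notch receptor gene Notch1 was within 1.33-fold. Among genes that restrain neuronal conversion or switch chromatin subunits, 2 of 12 were higher, 2 lower and 8 neither, close to the shares of 12.7% and 10.7% over all compared genes. As a description, Ctdspl and Ctdsp1, small phosphatase genes that act with REST, were 2.47-fold and 2.21-fold higher in APNL. The other Ctdsp1 probes gave differences of 0.26 and 0.57, short of 2-fold. Ss18l1, the neuronal BAF subunit gene, was 3.69-fold lower, at 8.14 against 10.03. Ptbp1, the splicing repressor gene whose loss favours neurons, was at 12.82 on APNL and 12.44 on Primary neuron, 1.3-fold apart, and Rest and Ptbp2 were not detected.

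**Figure D2:**
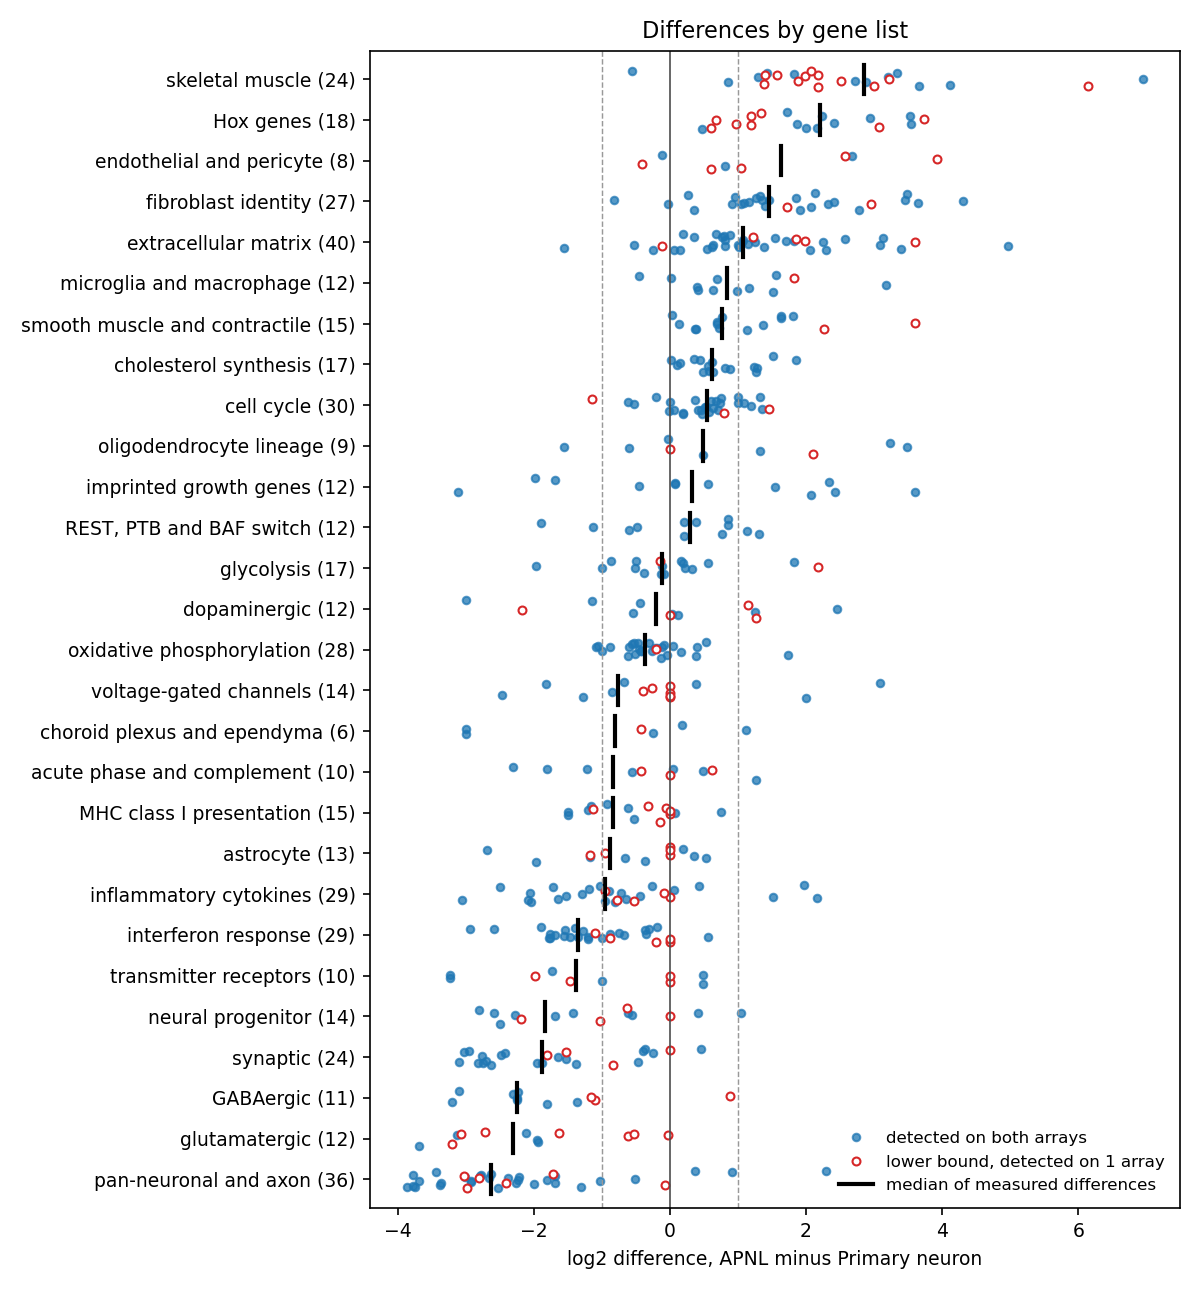
Log2 differences, APNL minus Primary neuron (horizontal), of the compared members of 28 gene lists (rows, number compared in brackets), filled where detected on both arrays and open where a lower bound, with the median of the measured differences as a bar. Medians run from -2.63 for pan-neuronal genes to 2.85 for skeletal muscle genes, and dashed lines mark 2-fold.

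How much of the neuronal level APNL cells held was described over 105 genes that were not detected on Fibroblast and had a level of at least 10 on Primary neuron. Of these, 95 were detected on APNL and 104 on APNL+AuEMF. From raw intensity less background, the median APNL signal was 9.14% of the neuronal signal, with quartiles of 6.61% and 12.1%, a lowest value of 0.179% and a highest of 23.8%. Of the 105 genes 48 lay between 5% and 10% and 33 between 10% and 15%, and the choice of genes absent from Fibroblast and high on Primary neuron favours a low percent. No gene exceeded 25% on APNL. On the normalised scale, which carries an added offset, the median was 13.3% with quartiles of 10.3% and 17.3%. The same genes had a median of 27.8% on APNL+AuEMF, with quartiles of 21.6% and 36.5%, from raw intensity.

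The values by neuronal class rest on few genes, their ranges overlap between GABAergic and pan-neuronal and between pan-neuronal and glutamatergic genes, and no difference was tested. The 3 GABAergic genes among the 105 had a median of 13.8% on APNL, the 7 pan-neuronal genes 8.55% and the 4 glutamatergic genes 5.42%. Gad1 was at 16.9%, Slc32a1 at 8.19% and Tbr1 at 4.95% of the neuronal signal. The genes at the ends of the range were chosen after their values were seen. At the low end Hba-a1, an adult haemoglobin gene, had 0.179% on APNL and 0.409% on APNL+AuEMF, Islr2 had 1.99%, Fezf2 3.49% and Tfap2c 3.70%. At the high end were Psmb9, an immunoproteasome gene, at 23.8%, Crym at 22% and the acute-phase gene Saa3 at 18.0%. Saa3 was at 590% of the neuronal signal on APNL+AuEMF, which no other of the 105 genes exceeded. That array is shown for position and no difference between it and APNL was tested.

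**Figure D3:**
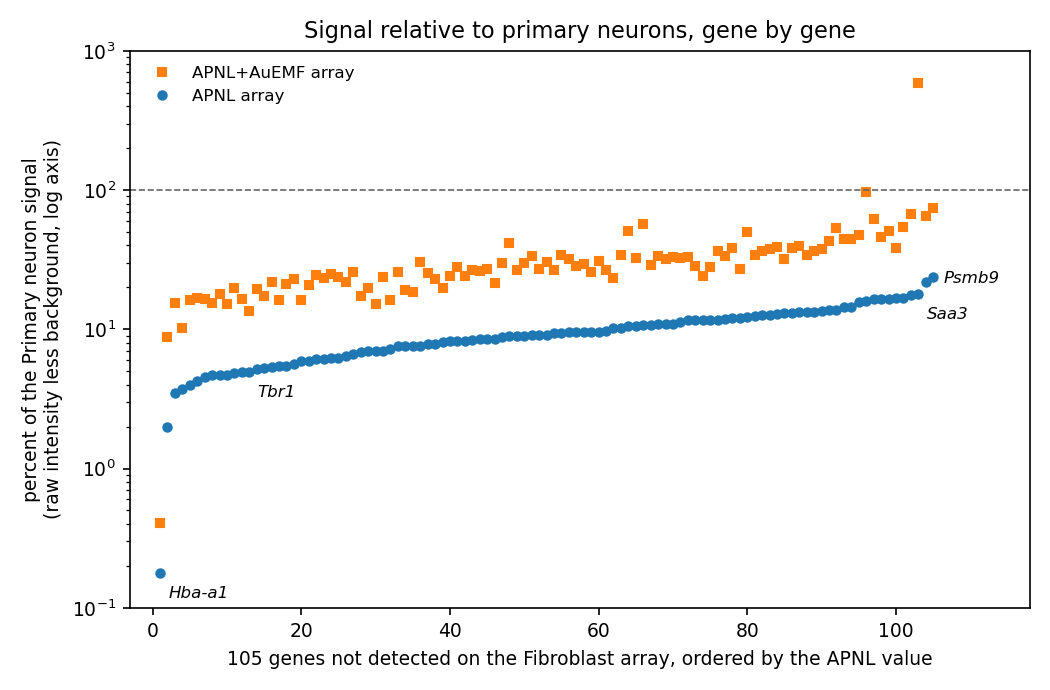
Signal on the APNL array (circles) and APNL+AuEMF array (squares) as a percent of the Primary neuron signal (vertical, log axis, raw intensity less background) for 105 genes not detected on Fibroblast, ordered by the APNL value (horizontal, rank). The dashed line is the neuronal signal. The APNL values have a median of 9.14% and stay below 25%, and Hba-a1 stands apart at 0.179%.

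Markers of cell types other than neurons moved with the neuronal genes in part, and their part in the results was not tested. On the erythroid list 3 of 9 genes were compared, and summed raw signal over background was 83 on APNL, 168 on APNL+AuEMF and 3579 on Primary neuron. Hba-a1 was at 11.24 on Primary neuron and not detected on the other arrays, at least 19.8-fold lower in APNL, and Hbb-bt was at least 2.85-fold lower, while Alas2 was not detected on any array. Ttr, the transthyretin gene of the choroid plexus, was not detected on Fibroblast and was at 9.87 on APNL, 11.15 on APNL+AuEMF and 12.88 on Primary neuron, 8.01-fold lower in APNL. The choroid markers Folr1 and Kl were not detected on any array. Of 13 compared astrocyte genes 4 were lower and 9 neither, where 10.7% of all compared genes were lower. Cspg5 was 6.41-fold lower, Aldoc, the brain aldolase gene, 3.93-fold and the glutamate transporter gene Slc1a3 2.27-fold, and Gfap and S100b were not detected on any array.

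The oligodendrocyte lineage list had 4 of 9 genes higher in APNL, 1 lower and 4 neither, beside 12.7% and 10.7% of all compared genes. Olig1, a lineage transcription factor gene, was at 8.77, 10.85, 12.13 and 12.39 on Fibroblast, APNL, APNL+AuEMF and Primary neuron, 2.93-fold lower in APNL. Pdgfra, a growth factor receptor gene of both oligodendrocyte precursors and fibroblasts, was at 12.71, 12.63, 12.34 and 9.15, 11.2-fold higher in APNL, and Cldn11, a tight junction gene, was 9.45-fold higher. Olig2 was not detected on any array. Of 12 microglia and macrophage genes 5 were higher in APNL, none lower and 7 neither. The summed raw signal of the list was 9002 on Fibroblast, 8784 on APNL, 36851 on APNL+AuEMF and 5140 on Primary neuron. Tmem119, which bone-forming cells express as well as microglia, was 9.05-fold higher at 11.19 against 8.02, the mannose receptor gene Mrc1 at least 3.55-fold, and the lysozyme gene Lyz2 2.95-fold, though a second Lyz2 probe gave a difference of -0.09. Itgam was not detected on any array. Of 8 endothelial and pericyte genes 4 were higher in APNL. Among them were Emcn, at least 15.1-fold, the angiopoietin receptor gene Tek, at least 5.92-fold, and Flt1, 6.43-fold. Emcn, Tek and Flt1 stood at 10.41, 9.18 and 12.35 on Fibroblast and at 10.28, 8.93 and 12.17 on APNL. The defining endothelial genes Pecam1, Cdh5 and Kdr were not detected on any array.

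Genes of the interferon response were lower in APNL than in neurons in 16 of 29 compared cases, with none higher and 13 neither, and a median of -1.35. The list median was 8.57 on Fibroblast, 9.86 on APNL, 11.06 on APNL+AuEMF and 11.14 on Primary neuron, so the Primary neuron array itself carried high levels of interferon response genes. Isg15, a ubiquitin-like antiviral gene, was at 8.83, 10.10, 11.89 and 13.03 on these arrays, 7.61-fold lower in APNL than in neurons. Ifit3, an antiviral gene, was at 8.48, 12.92, 14.41 and 14.81, 3.70-fold lower by its chosen probe. The 2 other Ifit3 probes were not detected on APNL and gave differences of -4.12 and -4.70, against -1.89 for the chosen one, so the size of its deficit is not settled. Irf7, the transcription factor gene that amplifies the response, was 5.97-fold lower, the antiviral enzyme gene Rsad2 3.41-fold and Parp14 3.40-fold. Irf1 was within 1.14-fold.

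The interferon-stimulated response element, searched on both strands as GAAA, any 2 bases and GAAA,, was found in the 250 bases upstream of 936 of 27025 genes, or 3.46%. On the interferon list 10 of the 22 compared genes with a promoter held it, or 45.5%, and 7 of the 11 lower in APNL. The list was chosen as genes of the interferon response, so its share is no result about APNL. Whether the element goes with the difference was not tested. The windows of Isg15 and Ifit3 are shown because both genes had high levels in neurons and were lower in APNL by every probe. They cover chr4:156200819-156201068 (minus strand) and chr19:34583279-34583528 (plus strand) of GRCm38.p6, read 5′ to 3′ along the gene. Capitals mark the matches, which are 3 overlapping ones at Isg15 and 2 on the opposite strand at Ifit3, and none overlaps another motif searched.
Isg15: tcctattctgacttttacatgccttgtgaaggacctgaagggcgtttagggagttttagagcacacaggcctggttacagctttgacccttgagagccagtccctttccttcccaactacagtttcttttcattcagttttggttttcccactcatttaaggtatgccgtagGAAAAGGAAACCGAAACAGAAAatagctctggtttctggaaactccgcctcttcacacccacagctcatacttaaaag
Ifit3: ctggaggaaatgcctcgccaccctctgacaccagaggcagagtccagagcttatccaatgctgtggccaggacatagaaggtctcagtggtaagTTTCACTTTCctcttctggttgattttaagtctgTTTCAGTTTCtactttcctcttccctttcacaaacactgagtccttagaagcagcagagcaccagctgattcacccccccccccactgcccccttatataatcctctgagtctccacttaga

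Genes of the MHC class I pathway, which shows peptides to T cells, were lower in 5 of 15 compared cases and neither in 10. Psmb9 was 2.83-fold lower in APNL, the peptide transporter genes Tap1 and Tap2 2.81-fold and 2.30-fold. Inflammatory cytokine genes were lower in 11 of 29, higher in 3 and neither in 15, with a median of -0.95. Cxcl10, an interferon-induced T-cell chemokine gene, was not detected on Fibroblast and was at 10.31 on APNL, 12.30 on APNL+AuEMF and 13.37 on Primary neuron, 8.30-fold lower in APNL. Nfkbia, the NF-kB inhibitor gene that NF-kB itself induces, was 5.61-fold lower, at 8.94 against 11.43. The chemokine genes Ccl3 and Cxcl2 were 4.24-fold and 4.16-fold lower, and Cxcl1, a neutrophil chemokine gene, was 3.11-fold lower at 13.56 against 15.20, with 9.42 on Fibroblast. Cxcl12, a stromal chemokine gene, went the other way at 13.48 against 11.33, 4.46-fold higher in APNL and about as high on Fibroblast, at 13.71. Its 2 other detected probes gave differences of 0.95 and 0.90, short of 2-fold. Ccl11 was 1.05-fold apart between APNL and Primary neuron, at 7.98 and 7.92, and 12.03 on APNL+AuEMF. Acute-phase and complement genes were lower in 3 of 10, higher in 1 and neither in 6, beside 10.7% lower and 12.7% higher over all compared genes. Saa3 was at 10.58 on APNL, 15.34 on APNL+AuEMF and 12.88 on Primary neuron, 4.93-fold lower in APNL than in neurons, and Lcn2, the iron-binding lipocalin gene, 3.48-fold lower.

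An NF-kB site, searched on both strands as GGGA, any 1 base and TTTCC, was found upstream of 112 of 27025 genes, or 0.414%. It was found at 5 of the 20 compared cytokine genes with a promoter. Of the 7 lower in APNL 3 held it, and these were Cxcl1, Cxcl2 and Nfkbia. The list was chosen as inflammatory genes, and whether the site goes with the difference was not tested. The Cxcl1 window, chr5:90890995-90891244 on the plus strand of GRCm38.p6, is shown for its high level on APNL, with the site in capitals ending 61 bases upstream.
Cxcl1: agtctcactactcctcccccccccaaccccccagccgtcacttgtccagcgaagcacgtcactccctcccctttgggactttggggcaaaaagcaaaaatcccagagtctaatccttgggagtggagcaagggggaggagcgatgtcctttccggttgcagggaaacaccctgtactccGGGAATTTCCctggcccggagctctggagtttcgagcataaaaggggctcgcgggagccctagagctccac

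On the other side, genes of the starting cell were still high in APNL. Of 27 compared fibroblast identity genes 21 were higher in APNL, none lower and 6 neither, where 12.7% of all compared genes were higher. The median difference was 1.45, and the list median was 12.47 on Fibroblast, 12.24 on APNL, 12.32 on APNL+AuEMF and 10.52 on Primary neuron. Meox2, a mesoderm homeobox gene, was at 11.40 on Fibroblast, 11.29 on APNL and 6.98 on Primary neuron, 19.7-fold higher in APNL than in neurons. Mfap4, a microfibril protein gene, was 12.6-fold higher, at 12.24 against 8.59, and Osr2, a mesenchymal transcription factor gene, 10.9-fold. Meox1 was at least 7.72-fold higher. Prrx1, a limb mesenchyme gene, was within 1.27-fold and S100a4, a calcium-binding protein gene, within 1.01-fold, with levels of 10.52 and 11.03 on Primary neuron, so these fibroblast genes did not separate the arrays.

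Extracellular matrix genes were higher in 23 of 40 compared cases, lower in 1 and neither in 16, with a median of 1.07. Eln, which encodes elastin, was at 13.42, 13.15, 12.48 and 8.18 on Fibroblast, APNL, APNL+AuEMF and Primary neuron, 31.4-fold higher in APNL. Fbn2, the fibrillin gene of elastic microfibrils, was 10.5-fold higher, the fibrillar collagen gene Col5a2 8.73-fold and the proteoglycan gene Ogn 8.49-fold. The basement membrane collagen gene Col15a1 was at least 12.1-fold higher. The 1 lower gene was the matrix protease gene Mmp3, named after its value was seen, at 9.93 on APNL and 11.48 on Primary neuron, 2.92-fold. Timp2, a protease inhibitor gene, was within 1.04-fold. Itga11, an integrin gene of collagen-binding fibroblasts, was outside the list and 19-fold higher, at 14.00 against 9.75.

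Hox genes, which record position along the body axis and are silent in the forebrain, were higher in 14 of 18 compared cases and neither in 4, with a median of 2.20. Hoxa5 was at 11.10 on Fibroblast, 11.09 on APNL, 10.28 on APNL+AuEMF and 7.56 on Primary neuron, 11.6-fold higher in APNL. Hoxc10, a posterior gene, was also 11.6-fold higher by its chosen probe, while a second probe gave a difference of 1.66. Hoxd10 was at least 13.3-fold and Hoxa2 at least 8.39-fold higher, and Hoxb7 was within 1.38-fold. The Hox list median was 9.48 on Fibroblast and 9.51 on APNL, against 7.08 on Primary neuron.

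**Figure D4:**
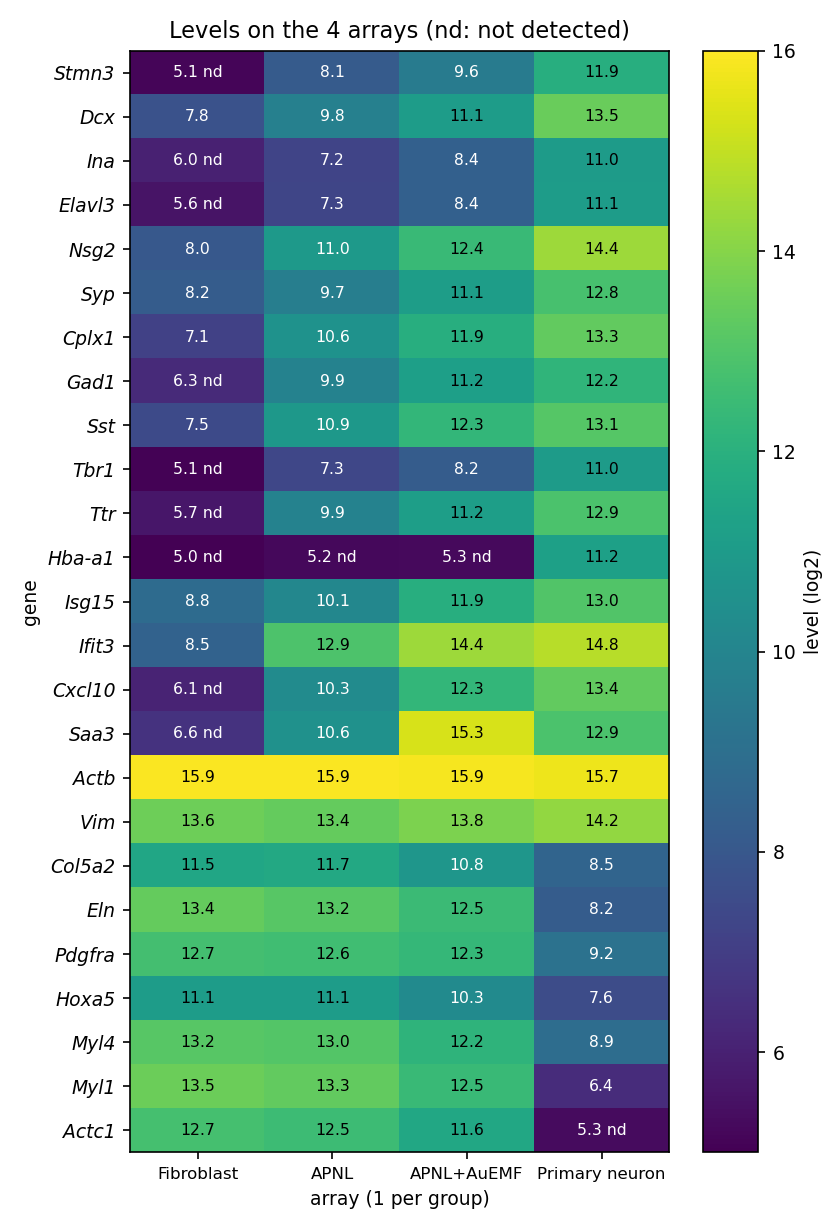
Levels (colour and number, log2 normalised intensity) of 25 genes (rows) on the 4 arrays (columns, 1 per group), with nd for not detected. Neuronal and interferon genes in the upper rows are lowest on Fibroblast and highest on Primary neuron, apart from Saa3, highest on APNL+AuEMF at 15.3, and mesenchymal and muscle genes in the lower rows stand about as high on APNL as on Fibroblast.

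Skeletal muscle genes gave the largest folds of the comparison. The 24 compared genes included 22 that were higher in APNL and 2 neither, and their median was 2.85. With the 12 genes that were not detected on Primary neuron at their bounds, it was 2.18. The list median was 9.85 on Fibroblast, 9.57 on APNL, 9.10 on APNL+AuEMF and 6.35 on Primary neuron. Myl1, a myosin light chain gene of fast muscle, was at 13.54, 13.35, 12.47 and 6.40 on these arrays, 123-fold higher in APNL than in neurons. Actc1, the cardiac and fetal muscle actin gene, was at 12.74, 12.52 and 11.61 on the first 3 and was not detected on Primary neuron, at least 71.2-fold higher in APNL. Myl4, a fetal myosin light chain gene, was 17.4-fold higher, and the troponin gene Tnnc1 12.6-fold. Chrna1, the muscle acetylcholine receptor gene, was at 10.44 against 7.11. Outside the list, Nppa, the atrial natriuretic peptide gene, was at least 30.2-fold higher, and the light chain genes Myl2 and Myl3 at least 22.5-fold and 21.8-fold. Mef2c, a transcription factor gene shared by muscle and neurons, was 1.47-fold lower, at 10.17 against 10.73, while another of its probes gave a difference of 0.94.

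A CArG box, the site of serum response factor, was found upstream of 1.62% of genes and at 2 of the 22 compared muscle genes with a promoter, Acta1 and Actc1. The E-box CAGCTG, a site of myogenic and proneural factors alike, was found upstream of 14.7% of all genes, of 8 of these 22 muscle genes (36.4%) and of 8 of 20 synaptic genes (40.0%). The other lists searched were also above the share of all genes, at 28.0% for pan-neuronal, 27.3% for interferon, 25% for cytokine and 21.9% for extracellular matrix genes. The windows of the genes with the largest folds are shown, with the CArG box of Actc1 and the E-box of Myl1 in capitals. They cover chr2:114052876-114053125 and chr1:66945057-66945306, both on the minus strand of GRCm38.p6.
Actc1: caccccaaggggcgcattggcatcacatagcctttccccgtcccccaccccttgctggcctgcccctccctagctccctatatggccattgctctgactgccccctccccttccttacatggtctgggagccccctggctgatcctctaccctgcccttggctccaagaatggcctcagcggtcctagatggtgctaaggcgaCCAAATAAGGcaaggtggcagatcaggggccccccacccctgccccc
Myl1: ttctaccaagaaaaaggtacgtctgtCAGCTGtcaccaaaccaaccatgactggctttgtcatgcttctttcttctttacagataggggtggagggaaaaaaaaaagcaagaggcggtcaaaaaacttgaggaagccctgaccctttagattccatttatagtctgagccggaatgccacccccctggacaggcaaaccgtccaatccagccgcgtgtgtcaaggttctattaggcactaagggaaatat

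Smooth muscle and contractile genes were higher in 7 of 15 compared cases and neither in 8. Myh11, the smooth muscle myosin gene, was at least 12.1-fold higher in APNL, Lmod1 at least 4.81-fold and Actg2 3.5-fold, and Mylk, the light chain kinase gene, outside the list, was 14.1-fold higher at 10.59 against 6.77. Acta2, smooth muscle actin, was 1.02-fold apart, at 16.07 and 16.05. Its raw intensities of 68767 and 68254 by this probe are at the top of the scale of both arrays. Of its 3 other probes, 2 lay lower on the scale and both gave a difference of -0.73, and the third gave 0.40.

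Pairs were listed of a gene set down as the neuronal form and a related gene of other cells. Of 20 listed pairs 13 could be measured. In 12 the listed neuronal form was lower relative to the other one, by at least 2-fold in 11. The median gap between the 2 differences was 2.28. By the chosen probes, some gaps rest on the other form alone. Actb and Pgam1, general forms listed here as neuronal, differed by 0.19 and -0.11, and their muscle partners Actc1 and Pgam2 by at least 6.15 and 2.17. Other detected Actb probes gave -3.44 and -2.04, so the direction of Actb is not settled. Tubb3 was not detected on APNL, and its bound was only -0.07. Ina was 13.6-fold lower in APNL and Des, the muscle intermediate filament gene, 7.35-fold higher. The calcium pump gene of neurons, Atp2b2, was at least 4.05-fold lower, and that of muscle, Atp2a1, at least 10.1-fold higher. These were the 2 pairs called in opposite directions. In 7 pairs the neuronal form was lower and the other was not: Elavl3 differed by -3.77 and the ubiquitous Elavl1 by 0.86, Camk2b by -2.42 and Camk2d by 0.01, and the synaptic vesicle gene Vamp2 by -1.64 and Vamp3 by 0.49. In glycolysis Aldoc differed by -1.97 and the general Aldoa by -0.13, whereas Eno2 differed by -0.51 and the muscle form Eno3 by 1.82. Actl6b and Actl6a ran against the pattern, with differences of 0.85 and 0.21. The other Actl6b probes gave -3.95, -1.21 and -4.20, without detection on APNL, so this neuronal BAF subunit has no settled direction here.

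**Figure D5:**
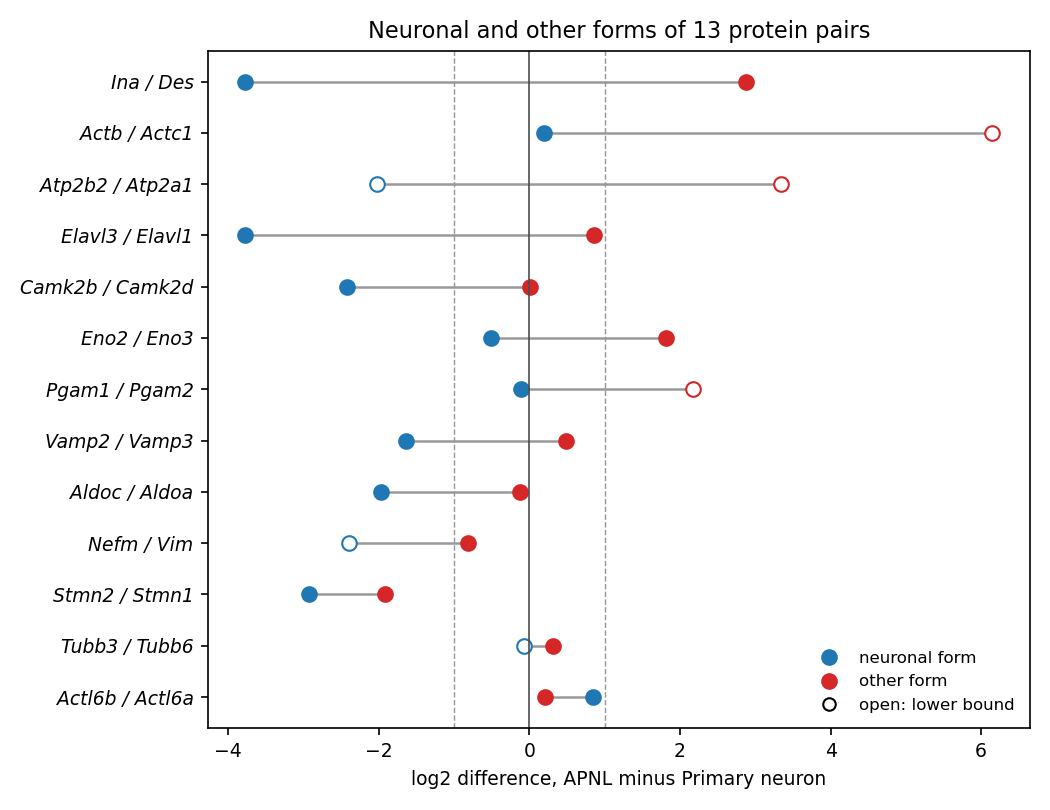
Log2 differences, APNL minus Primary neuron (horizontal), of the neuronal form (blue) and the other form (red) of 13 protein pairs (rows), joined by a line, open where a lower bound, with 2-fold as dashed lines. The form listed as neuronal lies to the left in 12 pairs, among them the general forms Actb and Pgam1. Ina with Des shows the widest measured gap, 6.65.

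Imprinted growth genes split, with 5 of 12 higher in APNL, 3 lower and 4 neither, beside 12.7% higher and 10.7% lower over all compared genes. Dlk1, a Notch-like inhibitor of differentiation, was at 12.71 against 9.12, 12.1-fold higher, and Peg3 and the growth factor clearance receptor gene Igf2r were 5.4-fold and 5.06-fold higher. Nnat, neuronatin, of developing brain, was 8.64-fold lower, at 8.15 against 11.26. Cell cycle genes were higher in 6 of 30, lower in 1 and neither in 23, beside the same shares of all compared genes, with a median of 0.55. Plk1, a mitotic kinase gene, was 2.56-fold higher, Bub1b, a spindle checkpoint gene, 2.50-fold and Ube2c at least 2.74-fold, while Cdk1 was at 11.14 on both arrays. Proliferation genes were thus well detected on the Primary neuron array.

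Cholesterol synthesis genes were higher in 5 of 17 cases, the other 12 being neither, and had a median of 0.62. Over all compared genes 12.7% were higher and 10.7% lower. Lss, lanosterol synthase, was 2.86-fold higher and Hsd17b7 2.43-fold, and Hmgcs1, an early enzyme of the pathway, was within 1.01-fold. Nsdhl was 3.62-fold higher by its chosen probe, but its 3 other probes gave differences of -0.22, -0.31 and -0.90. Glycolysis genes were neither in 14 of 17, with 2 higher and 1 lower, no more than the shares over all compared genes. Oxidative phosphorylation genes were neither in 25 of 28, with a median of -0.37, and were called less often than all compared genes. The lower ones were Sdhb, 2.13-fold, and Ndufs3, 2.07-fold, and the higher one was Cox6a2, the muscle form of a cytochrome oxidase subunit, 3.33-fold. Matching the arrays by their medians, without quantile normalisation, turned the sign of the oxidative phosphorylation median, to 0.23, and moved the median of all compared genes to 0.28.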

How the data were processed

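Total RNA, 0.55 ug per array per the labels, was hybridised to 4 Illumina BeadChips, 1 per group. The submitters' processing notes name GenomeStudio 2011.1, and the handling of background in it is not given in the sources used here. In the deposited table each probe has a linear intensity, not normalized between arrays, and a detection p-value in steps of 1 in 798. The authors' deposited log2 values equal quantile-normalized log2 intensity with no background correction to within 5e-07, and were used as an alternative.

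From the deposited intensity, limma 3.58.1 (R 4.3.3) gave background-corrected values with neqc. Negative controls were inferred through the detection p-values, the offset was 16, and the log2 values of all 4 arrays were quantile-normalized together. Precision is limited by the number of arrays. Among 25697 probes, 23978 carried a single gene symbol, 0 several and 1719 none, and 23962 matched RefSeq by gene identifier. A gene took its probe with the highest mean over the 4 arrays, and 4777 of 16593 genes had over 1 probe. Among 1725 genes with over 1 probe detected on both arrays, 85.0% had probes within 2-fold of each other and 6 had probes called in opposite directions. Probe positions were not used here. Background for the percent of the neuronal signal was the median raw intensity of probes with a detection p of 0.05 or more (128 to 130 units), and the 10 undetected genes entered that percent at their measured values.

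The members, the 30 gene lists (653 of 752 genes had a probe) and the tests were chosen with earlier results of these data known. Named genes are the factors, the 12 largest measured differences and 8 largest bounds in each direction, up to 5 of the largest and 3 of the smallest differences per list, the paired genes and undetected defining markers. Genes named beyond it, such as Nsg2, Ncam1, Cxcl1, Slc17a6, Crym and Mmp3, were chosen after their values were seen. Promoters are RefSeq windows of GRCm38.p6. The steps were tested on simulated data. Other steps used numpy 2.4.6, pandas 2.3.3 and matplotlib 3.10.9 in Python 3.11.15.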

Additional observations from a re-analysis of the deposited data

Results flagged for a closer look

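Probes without a gene symbol lie outside the comparison of genes, and some of them differed as strongly. Of 1719 such probes 725 were detected on at least 1 of the 2 arrays, and 15 of these (2.07%) were at least 4-fold higher in APNL and 24 (3.31%) at least 4-fold lower. Among named genes the shares were 2.42% and 3.39%. What these probes read was not examined.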

How the results depend on the processing

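No paired analysis was possible because each group has 1 array. Every choice was made with earlier results of these data known, and the raw-intensity scale for the percent of the neuronal signal was added after seeing the data. Under the alternatives run, 14 of 251 recomputed list medians and 235 of 2289 recomputed values of named genes moved by over 1.5-fold, and none that had been called changed sign. Without background correction, and equally with the authors' deposited log2 values, 732 genes were higher in APNL and 735 lower, and the medians were 0.86 for endothelial and pericyte, 1.92 for skeletal muscle and -1.04 for neural progenitor genes. With a 3-fold threshold 409 were higher and 472 lower. With normexp at an offset of 50 the endothelial median was 1.02, and with the mean of a gene's probes 1.00. With no filter and no bounds the medians were 0.44 for endothelial, -0.58 for neural progenitor, -0.36 for transmitter receptor, -0.19 for choroid plexus and -0.07 for acute-phase genes. Scaling to a common median gave 1468 higher and 891 lower genes, moved the median of all compared genes to 0.28, and gave 0.23 for oxidative phosphorylation. The dopaminergic and glycolysis medians also took the other sign in 1 setting each, within ranges of -0.42 to 0.08 and -0.13 to 0.37. The count of protein pairs with the listed neuronal form lower relative to the other was 7 of 8 with both arrays required to detect the gene. The median percent of the neuronal signal ran from 9.14% to 18.7%. The cause of these shifts was not tested. Genes near the detection limit of APNL, such as most excitatory neuron genes, have only bounds.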
